A study of Mus musculus with 11 samples.

Results

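Substance P, PACAP and the related signalling peptides of sensory neurons were followed through 8 genes. They were taken by symbol from the count table of every library: the peptide precursors Tac1, Adcyap1, Nmb, Cck and Cartpt and the receptors Tacr1, Adcyap1r1 and Sstr2. All 8 were present among the 55401 genes listed, and 6 of them were among the 16817 genes with enough counts to be tested. RNA came from trigeminal ganglion neurons of mice that had taken up the retrograde tracer DiI and were sorted by fluorescence from both ganglia. The tumour was MOC1, a line of oral squamous carcinoma cells from the mouse, and these animals gave 3 female and 3 male libraries. Sham mice gave 3 female and 2 male libraries, and the sorting gate was set with naive mice and DiI-injected shams. Strain, age, tumour site and time after implantation are not given in the sources used here, and the labels do not say that libraries are separate animals. The p-values then measure the spread between these libraries, which may be technical.

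Tac1 encodes the precursor of substance P and neurokinin A, which peptidergic pain-sensing neurons release from both their central and their peripheral endings. Substance P acts on the NK1 receptor (Tacr1), a Gq-coupled receptor, and causes plasma leakage and vessel dilation in the tissue. Adcyap1 encodes PACAP, a peptide of the VIP family that acts on the Gs-coupled PAC1 receptor (Adcyap1r1) and is known in the trigeminal system for its link to migraine. Neuromedin B (Nmb) belongs to the bombesin family, cholecystokinin (Cck) acts on the receptors Cckar and Cckbr, and Cartpt encodes the CART peptides. Sstr2 is a Gi-coupled somatostatin receptor that inhibits the neurons that carry it.

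Libraries held between 10757426 and 16703797 counts in genes, and between 14180 and 19078 genes were detected in each. Pan-neuronal markers summed to between 20329 and 22811 CPM (counts scaled to library size) in MOC1 libraries and between 16289 and 18897 CPM in sham libraries. The most abundant of these were Map1b, at 7580 ± 642 CPM in the MOC1 arm, against 6012 ± 460 CPM in the sham arm, and Nefl, at 2128 ± 237 CPM in the MOC1 arm, against 1891 ± 154 CPM in the sham arm (SD, n = 6 and 5). Satellite glia markers, led by Apoe, summed to between 3544 and 6514 CPM in MOC1 libraries and between 9885 and 12013 CPM in sham libraries. Macrophage and leukocyte markers summed to at most 23.1 CPM in the MOC1 arm, against 52.5 CPM in the sham arm, and squamous and tumour markers to at most 18.6 and 14.1 CPM, with 5 of those 11 genes (Krt5, Krt6a, Krt17, Krt8 and Krt18) at 0 in all libraries. Sham female 1 stood apart with endothelial and mural markers at 1435 CPM, where the other libraries lay between 178 and 398 CPM. MOC1 female 3 and MOC1 male 2 had the fewest genes detected, at 14180 and 15327, where the next lowest, MOC1 female 2, had 16043. Sham female 1, MOC1 female 3 and MOC1 male 2 are called below the 3 libraries that stand apart. They were chosen with earlier results of these data known. Fits without them were read for the members, Cckar, Ece1, Gnaq, Prkar2a, Arrb1, Plcb4, Gnao1 and Prkar1b, and values are given where a call changed. Calls of the other named genes were not read in these fits. Xist lay between 302 and 664 CPM in libraries labelled female and at 0.446 CPM or below in those labelled male.

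Per kilobase of annotated exon, Tac1 was the most abundant of the 8 genes. It averaged 157 ± 29.6 CPM per kb in MOC1 libraries and 124 ± 17.9 CPM per kb in sham libraries, and ranked 165 of 16259 tested genes with a known length. Adcyap1 followed with 86.6 ± 17.7 CPM per kb in MOC1 and 64.6 ± 13.0 CPM per kb in sham libraries. Nmb stood close behind with 70.9 ± 7.71 CPM per kb in MOC1 and 59.5 ± 2.28 CPM per kb in sham libraries. Tac1 did not overlap with Adcyap1 within either arm, whereas Adcyap1 and Nmb overlapped in both. Cartpt was much lower, at 8.11 ± 3.42 CPM per kb in MOC1 and 10.6 ± 2.20 CPM per kb in sham libraries. The receptors were lower still. Sstr2 stood at 1.95 ± 0.985 CPM per kb in MOC1 and 2.96 ± 1.16 CPM per kb in sham libraries, and Adcyap1r1 at 0.764 ± 0.488 and 1.36 ± 0.243 CPM per kb in MOC1 and sham, so that the ranges of both receptors overlapped in each arm. The exon lengths join all annotated isoforms, which makes these levels approximate. On GRCm38, whole genes lie at chr6:7554879-7565834 (Tac1, plus strand), chr17:93199017-93206537 (Adcyap1, plus), chr7:80902227-80905076 (Nmb, minus), chr13:99898489-99901091 (Cartpt, minus) and chr9:121489824-121495694 (Cck, minus). The receptor genes lie at chr6:55451978-55501451 (Adcyap1r1, plus), chr11:113619342-113626028 (Sstr2, plus) and chr6:82402334-82560104 (Tacr1, plus).

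The promoters of the 2 most abundant peptide genes and of both members with a full cAMP response element are shown. The PAC1 and somatostatin receptors act through cAMP. The cAMP response element is the sequence bound by CREB. RefSeq windows of 300 bases, 250 before to 50 after the start of transcription, were found for all 8 genes, with 9 windows because Adcyap1 has 2. They were searched on both strands for the full element TGACGTCA and for its half-site TGACG, which lies inside the full element. Coordinates are GRCm38.p6, sequences run 5′ to 3′ on the gene's own strand, and capitals mark every match.
Tac1, chr6:7554811-7555110, plus strand: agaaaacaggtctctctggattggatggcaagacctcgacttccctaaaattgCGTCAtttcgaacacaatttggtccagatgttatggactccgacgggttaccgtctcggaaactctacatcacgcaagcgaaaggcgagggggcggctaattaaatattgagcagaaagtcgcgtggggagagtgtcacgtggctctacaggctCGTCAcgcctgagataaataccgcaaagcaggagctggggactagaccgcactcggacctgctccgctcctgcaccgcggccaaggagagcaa
Adcyap1, chr17:93198767-93199066, plus strand: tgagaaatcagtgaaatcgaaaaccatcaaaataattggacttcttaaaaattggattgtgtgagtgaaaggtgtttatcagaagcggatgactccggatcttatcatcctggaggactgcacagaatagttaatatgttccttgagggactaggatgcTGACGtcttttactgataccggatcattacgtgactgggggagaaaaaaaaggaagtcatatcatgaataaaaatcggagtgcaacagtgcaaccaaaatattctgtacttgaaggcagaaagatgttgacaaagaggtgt
Cartpt, chr13:99900634-99900933, minus strand: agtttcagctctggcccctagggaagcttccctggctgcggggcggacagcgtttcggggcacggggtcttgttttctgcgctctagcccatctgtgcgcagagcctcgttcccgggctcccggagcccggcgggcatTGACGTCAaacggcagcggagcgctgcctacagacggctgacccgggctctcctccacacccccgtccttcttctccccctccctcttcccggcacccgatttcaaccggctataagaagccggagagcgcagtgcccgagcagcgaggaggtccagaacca
Sstr2, chr11:113619077-113619376, plus strand: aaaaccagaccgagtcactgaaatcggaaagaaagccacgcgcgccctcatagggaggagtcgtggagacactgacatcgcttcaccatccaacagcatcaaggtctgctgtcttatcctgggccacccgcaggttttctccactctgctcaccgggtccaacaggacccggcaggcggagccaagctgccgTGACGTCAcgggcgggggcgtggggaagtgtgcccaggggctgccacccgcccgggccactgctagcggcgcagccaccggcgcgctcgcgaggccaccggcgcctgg
The Tac1 window holds half-sites beginning 197 and 43 bases before the start, and the Adcyap1 window holds one 91 bases before it. Full elements were found in the windows of Cartpt and Sstr2, 2 of the 9, against 1.79% of 32851 windows of all genes. Half-sites were found in 7 of the 9 windows, against 20.8% of all windows, and in neither Nmb nor Adcyap1r1. The 2 Adcyap1 windows overlap and share 1 half-site, 91 and 242 bases before their starts, which is counted in both. These matches describe the letters and do not show that a factor binds there, and their part in the levels was not tested.

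The comparison of MOC1 with sham asks how gene expression in tracer-labelled trigeminal neurons differs when the mouse bears a tumour. In edgeR's quasi-likelihood test with sex as a term, none of the 6 tested members passed an adjusted p of 0.05 (Benjamini-Hochberg over all genes), where 6.62% of all tested genes passed, 2.34% higher and 4.28% lower. At an unadjusted p under 0.05 stood 3 members with higher and 1 with lower levels in MOC1, 4 of 6, against 18.5% of all genes, 8.39% higher and 10.1% lower. DESeq2 called 2 members higher, Tac1 (adjusted p = 0.0476) and Adcyap1 (adjusted p = 0.0394), where it called 3.65% of all genes higher, and voom with quality weights called none. The CPM of the MOC1 and sham arms overlapped for every one of the 6, whereas they did not overlap for 6.33% of all tested genes, 2.15% higher and 4.18% lower.

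**Figure D1:**
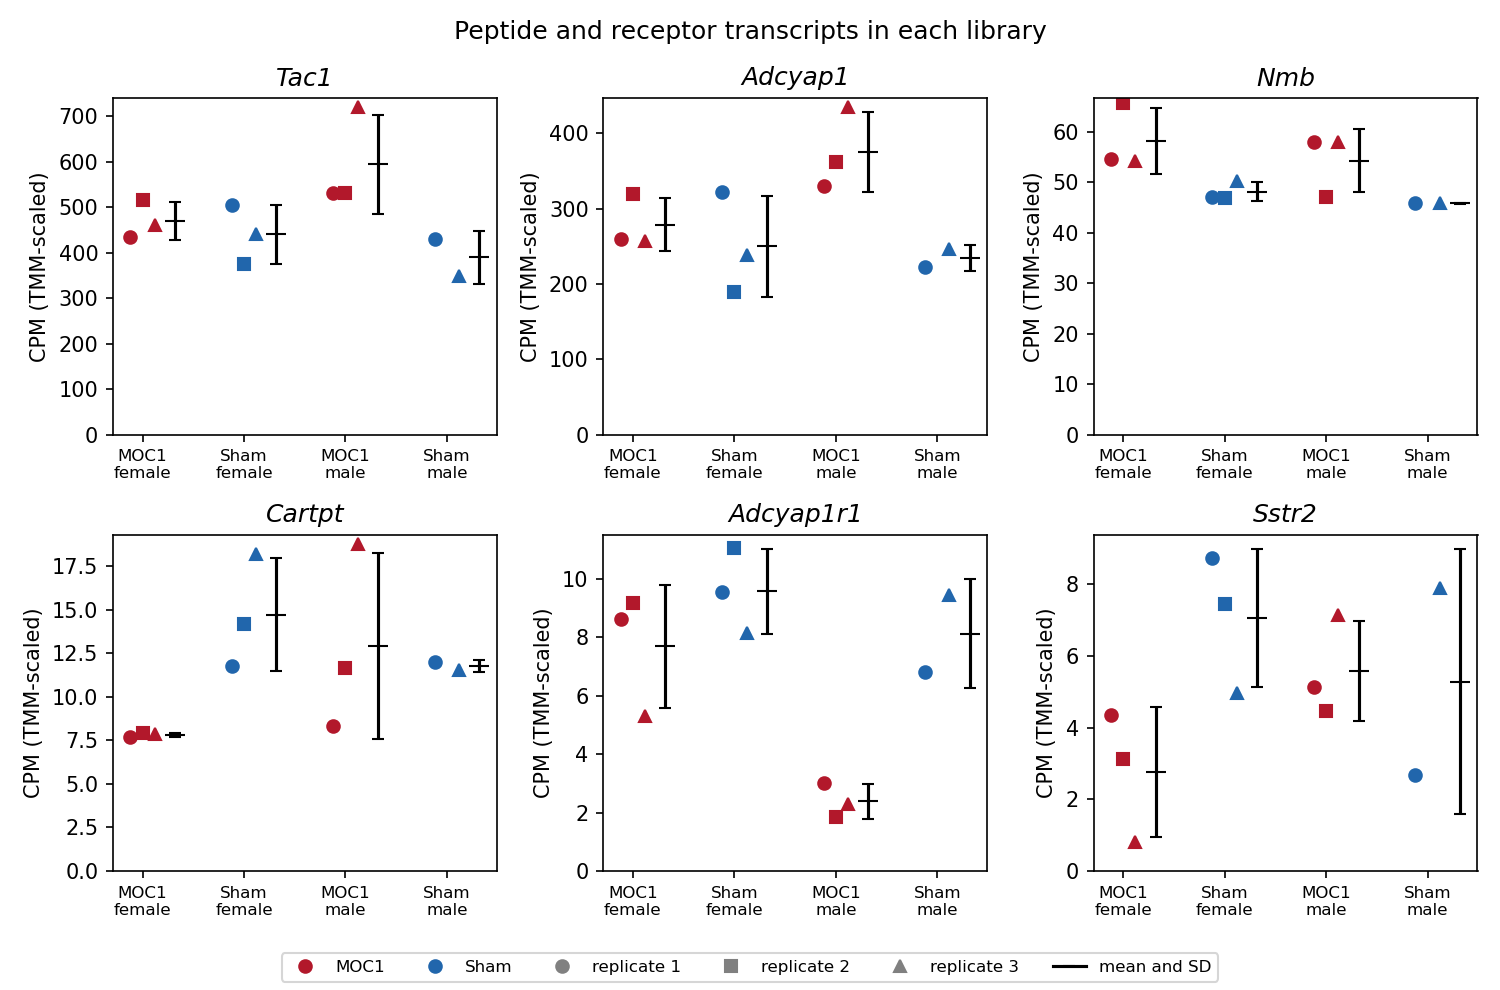
CPM after TMM scaling (y axes, from 0) of the 6 tested members in each library, grouped by condition and sex on the x axis. Colours give the condition and shapes the replicate number, and black marks give the mean and SD of each group (2 libraries for sham males). MOC1 male libraries lie above sham male libraries for Tac1 and Adcyap1 and below them for Adcyap1r1, while the female groups overlap for these 3 genes.

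Tac1 showed its highest levels in MOC1 males. It stood at 435, 517 and 460 CPM in the 3 MOC1 female libraries, against 505, 375 and 442 CPM in the 3 sham female libraries. In males it stood at 531, 531 and 721 CPM in MOC1 libraries, against 430 and 349 CPM in sham libraries. The female groups overlapped, and every MOC1 male library lay above both sham male libraries. Over all libraries Tac1 averaged 532 ± 100 CPM in the MOC1 arm, against 420 ± 60.9 CPM in the sham arm (SD, n = 6 and 5), a log2 fold change of 0.32 ± 0.12 SE (95% interval 0.08 to 0.56, edgeR adjusted p = 0.117). The fitted fold, with sex as a term, was 1.25 and did not pass the threshold. Without sham female 1, the sham library with the highest Tac1, the log2 fold change was 0.41 and passed (edgeR adjusted p = 0.0238). That fit called 338 of 16564 genes higher. No other fit that leaves out 1 library called Tac1, and over the 11 such fits the log2 fold change ranged between 0.22 and 0.41. Without the 3 libraries that stand apart the log2 fold change was 0.46 (edgeR adjusted p = 0.0105), a fit that called 2.74% of all genes higher.

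Adcyap1 followed the same order of groups. Its levels were 260, 320 and 256 CPM in MOC1 female libraries, against 322, 189 and 239 CPM in sham female libraries. In males they were 330, 361 and 434 CPM in MOC1 libraries, against 223 and 247 CPM in sham libraries. The male groups did not overlap, and sham female 1 alone lay above all 3 MOC1 female libraries. Adcyap1 averaged 327 ± 66.7 CPM in the MOC1 arm, against 244 ± 49.1 CPM in the sham arm (SD, n = 6 and 5), a log2 fold change of 0.39 ± 0.13 SE (95% interval 0.11 to 0.66, edgeR adjusted p = 0.0928). Without sham female 1, also the sham library with the highest Adcyap1, the log2 fold change was 0.53 and passed (edgeR adjusted p = 0.00245). No other fit that leaves out 1 library called Adcyap1, and over the 11 such fits the log2 fold change ranged between 0.30 and 0.53. Without the 3 libraries that stand apart it was 0.58 and passed (edgeR adjusted p = 9.09e-04). The genes called higher in these fits are as given for Tac1.

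Tac1 and Adcyap1 varied together from library to library. The Pearson correlation of their log2 CPM over the 11 libraries was 0.90, and 0.76 after the mean of each of the 4 groups of condition and sex was subtracted. Both genes of a pair share their library, its depth and its scaling, and the values are a description. The ratio of Tac1 to Adcyap1 CPM averaged 1.64 ± 0.106 in MOC1 libraries and 1.75 ± 0.247 in sham libraries (SD, n = 6 and 5), and its range in MOC1 libraries lay within that in sham libraries. Of the 15 pairs among the 6 tested members, Adcyap1r1 with Sstr2 had the other high value within groups, at 0.80. Over the 11 libraries without that subtraction the value for Adcyap1r1 with Sstr2 was 0.10.

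**Figure D2:**
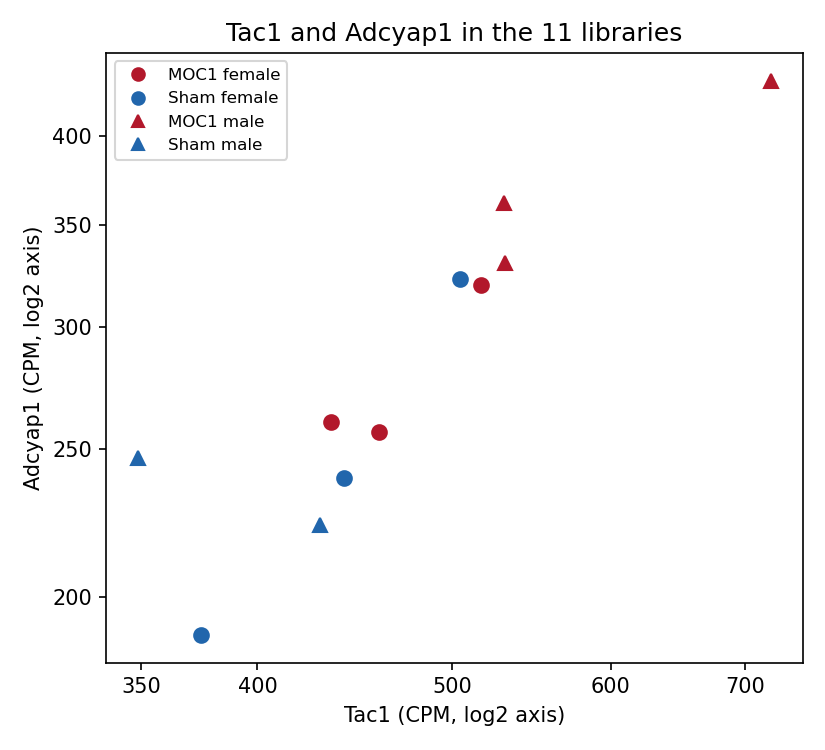
Tac1 (x axis) against Adcyap1 (y axis) in CPM after TMM scaling, both on log2 axes, with 1 point per library. MOC1 male 3 is highest for both, at 721 and 434 CPM, and sham female 2 is lowest for Adcyap1 at 189 CPM and second lowest for Tac1 at 375 CPM.

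Nmb differed little in size between the arms. It stood at 54.5, 65.7 and 54.2 CPM in MOC1 female libraries, against 47.0, 47.0 and 50.2 CPM in sham female libraries. In males it stood at 57.9, 47.0 and 57.9 CPM in MOC1 libraries, against 45.8 and 45.9 CPM in sham libraries. Within each sex every MOC1 library lay above every sham library, but MOC1 male 2 overlapped with the sham females. The log2 fold change was 0.26 ± 0.11 SE (95% interval 0.03 to 0.49), with means of 56.2 ± 6.11 CPM in the MOC1 arm, against 47.2 ± 1.80 CPM in the sham arm (SD, n = 6 and 5), and did not pass (edgeR adjusted p = 0.200).

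Cartpt ran the other way in females. It stood at 7.70, 7.92 and 7.87 CPM in MOC1 female libraries, against 11.8, 14.2 and 18.2 CPM in sham female libraries. In males it stood at 8.29, 11.6 and 18.7 CPM in MOC1 libraries, against 12.02 and 11.5 CPM in sham libraries. The female groups did not overlap and the 2 sham males lay inside the range of the MOC1 males. Over all libraries the log2 fold change was -0.45 ± 0.29 SE (95% interval -1.05 to 0.15, edgeR adjusted p = 0.451), and within females -0.91 ± 0.35 SE (edgeR adjusted p = 0.174).

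Cck was close to the limit of detection. No Cck count was seen in 8 of the 11 libraries, where 3 counts correspond to between 0.177 and 0.278 CPM. MOC1 male 2 held 31 counts (2.04 CPM), and MOC1 female 1 and sham female 3 held 5 each. Since 1 library carries most of the counts, no difference between the arms was detectable at this depth.

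Adcyap1r1, the PACAP receptor, had low counts and its lowest levels in MOC1 males. It stood at 8.62, 9.18 and 5.29 CPM in MOC1 female libraries, against 9.55, 11.1 and 8.14 CPM in sham female libraries. In males it stood at 3.02, 1.84 and 2.30 CPM in MOC1 libraries, against 6.80 and 9.45 CPM in sham libraries. The 3 MOC1 males were the lowest of the 11 libraries, and the female groups overlapped. The counts behind these values were between 28 and 47 in MOC1 males and between 72 and 184 in the other libraries. Over all libraries the log2 fold change was -0.96 ± 0.36 SE (95% interval -1.73 to -0.20, edgeR adjusted p = 0.140). Satellite glia markers were low in MOC1 libraries of both sexes, at 6514, 4697 and 3544 CPM in MOC1 females and 5033, 5773 and 4510 CPM in MOC1 males, and their part in the level of Adcyap1r1 was not tested. In bulk RNA, fewer cells of a type and less RNA per cell cannot be told apart.

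**Figure D3:**
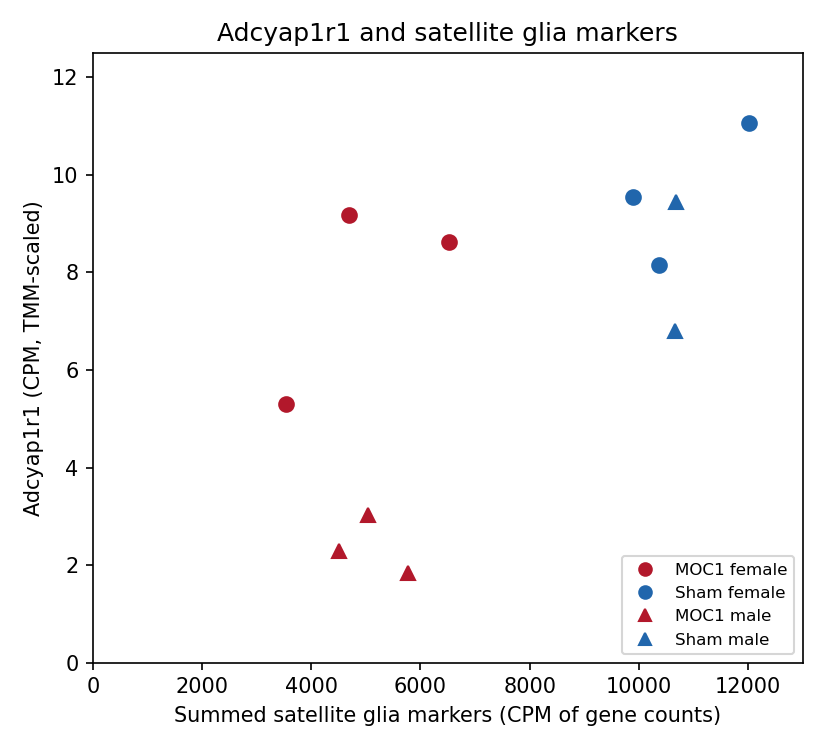
Adcyap1r1 in CPM after TMM scaling (y axis) against the summed CPM of 16 satellite glia markers (x axis), with 1 point per library. MOC1 females and MOC1 males share a low range of glial markers (3544 to 6514 CPM), while Adcyap1r1 lies between 5.29 and 9.18 CPM in the females and between 1.84 and 3.02 CPM in the males.

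Sstr2 and Tacr1 gave no call. Sstr2 stood at 4.36, 3.13 and 0.809 CPM in MOC1 female libraries, against 8.75, 7.46 and 4.96 CPM in sham female libraries. In males it stood at 5.14, 4.47 and 7.14 CPM in MOC1 libraries, against 2.67 and 7.90 CPM in sham libraries. The female groups did not overlap, whereas the sham males lay on both sides of the MOC1 males. The log2 fold change over all libraries was -0.73 ± 0.52 SE (95% interval -1.82 to 0.36, edgeR adjusted p = 0.524). It was -0.41 without MOC1 female 3, -0.25 without the 3 libraries that stand apart and -0.16 with voom, none of them called, and fits that leave out 1 library ranged between -1.08 and -0.41. Within females it was -1.35 ± 0.67 SE, and -0.73 without the 3 libraries. Tacr1 had 0 counts in all 6 MOC1 libraries, which allows up to 3 counts in each, and 1, 0, 15, 5 and 0 counts in sham female 1, 2 and 3 and sham male 1 and 3. It was too low to be tested, and no fold is given.

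Within females no member passed in edgeR, where 4.48% of all tested genes did, 1.33% higher and 3.15% lower. At an unadjusted p under 0.05 stood 1 member, Cartpt, lower in MOC1, against 17.3% of all genes, 7.27% higher and 9.99% lower. Groups that did not overlap were seen in females for Nmb, Cartpt and Sstr2, 3 of 6 members, against 21.3% of all tested genes. Nmb was the 1 higher, against 8.87% of genes, and the other two were lower, against 12.4%. Within males no member passed in edgeR, where 1.25% of all genes did, 0.166% higher and 1.09% lower. At an unadjusted p under 0.05 stood 3 members, 2 higher and 1 lower, against 7.95% of all genes, 3.13% higher and 4.82% lower. DESeq2 called Tac1 and Adcyap1 higher there, where it called 0.571% of all genes higher, and voom called none of the members. For Adcyap1r1 (log2 fold change -1.77 ± 0.49 SE) and Sstr2 (0.07 ± 0.72 SE) DESeq2 gave no adjusted p in males, so neither could be called. Groups that did not overlap were seen in males for Tac1, Adcyap1, Nmb and Adcyap1r1, 4 of 6, against 27.9% of all tested genes. The first 3 were higher, against 13.1% of genes, and Adcyap1r1 was lower, against 14.8%.

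In males the log2 fold change was 0.61 ± 0.15 SE for Tac1 (95% interval 0.29 to 0.93, edgeR adjusted p = 0.0578) and 0.68 ± 0.18 SE for Adcyap1 (95% interval 0.30 to 1.05, edgeR adjusted p = 0.0876). It was -1.76 ± 0.50 SE for Adcyap1r1 (95% interval -2.82 to -0.71, edgeR adjusted p = 0.127). In females the same genes had log2 fold changes of 0.10 ± 0.13, 0.16 ± 0.16 and -0.32 ± 0.45 SE. The female values of Tac1 and Adcyap1 were 0.21 and 0.38 without sham female 1, and 0.22 and 0.44 without the 3 libraries that stand apart. That of Tac1 was 0.15 without MOC1 female 1. Without MOC1 female 2 they were 0.023 and 0.047, and without sham female 2 they were -0.0076 and -0.0088. That of Adcyap1r1 was -0.11 without MOC1 female 3, also -0.11 without the 3 libraries, and -0.20 without sham female 2. None of these female values passed in edgeR. The test of the difference between the sexes did not pass for any of them, with a male minus female difference of 0.51 ± 0.20 SE for Tac1, 0.52 ± 0.24 SE for Adcyap1 and -1.45 ± 0.67 SE for Adcyap1r1 (edgeR adjusted p = 1.00 for each). The difference for Adcyap1 was 0.30 without sham female 1 and 0.27 without the 3 libraries that stand apart. No gene passed this test in edgeR, DESeq2 or voom (0% called), while 708 genes, 4.21%, had an unadjusted p under 0.05, 2.75% with a positive and 1.46% with a negative difference. Among these were 3 members, 2 of them positive and 1 negative. The male calls moved with single libraries. Tac1 in males passed without MOC1 female 3 (0.61, edgeR adjusted p = 0.0423), without sham female 1 (0.62, adjusted p = 0.0232) and without sham female 2 (0.61, adjusted p = 0.0466). The female libraries enter the male value through the shared estimate of the spread, the scaling and the genes tested. Without sham male 3, which leaves 1 sham male assumed to vary like the other groups, Tac1 in males stood at 0.47 (edgeR adjusted p = 0.895). Adcyap1 in males passed without sham female 1 (0.68, edgeR adjusted p = 0.0122) and without sham female 2 (0.68, adjusted p = 0.0344), and Adcyap1r1 without MOC1 female 3 (-1.77, adjusted p = 0.0323). With the replicate number as a block, Tac1 in males stood at 0.64 (edgeR adjusted p = 0.0493).

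**Figure D4:**
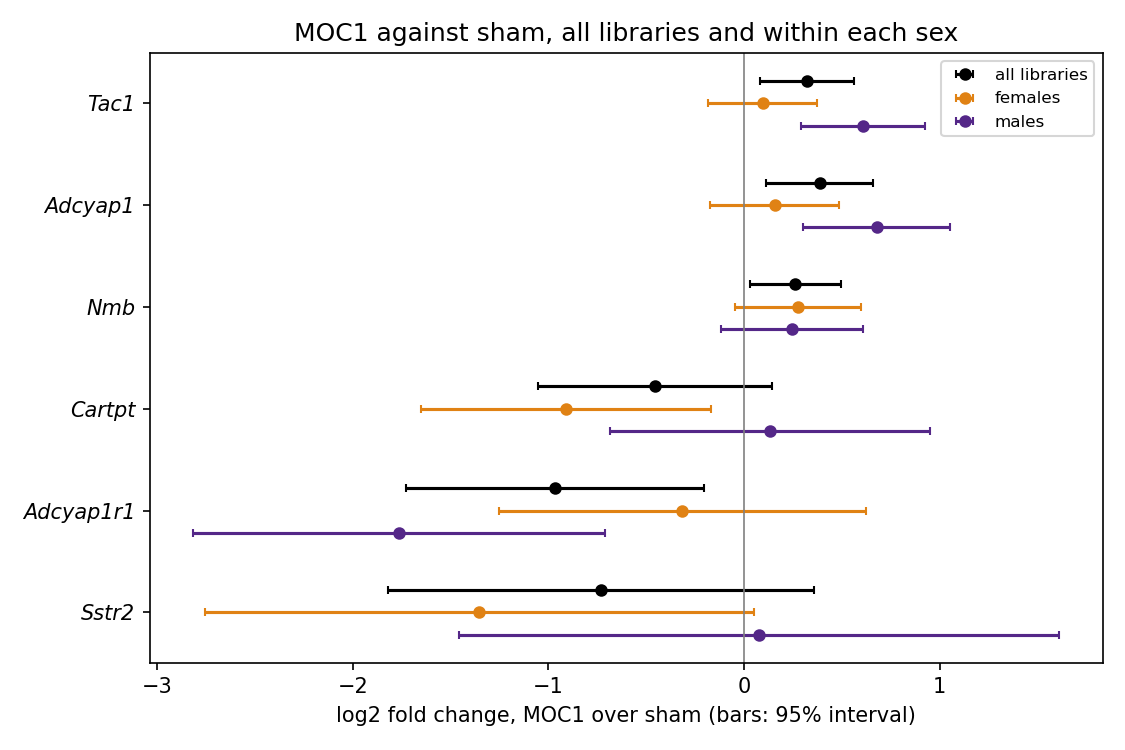
Log2 fold change of MOC1 over sham (x axis) for the 6 tested members, over all libraries (black), within females (orange) and within males (purple), with 95% intervals from the edgeR fits. For Tac1, Adcyap1 and Adcyap1r1 the male interval lies clear of 0 and the female interval spans it, and the intervals of the 2 sexes overlap.

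The choice of scale moved all members. When libraries were scaled to the pan-neuronal list, the log2 fold change was 0.02 for Tac1, 0.08 for Adcyap1 and -0.03 for Nmb, none of them called (edgeR adjusted p of 0.786 or more), while the median of all genes was -0.32. On that scale Adcyap1r1 stood at -1.25 ± 0.36 SE and passed (edgeR adjusted p = 0.0243), where 14.7% of all genes were called lower. Scaling to satellite glia markers instead put the median over all genes at 1.09, and Tac1 at 1.45, Adcyap1 at 1.503 and Nmb at 1.39 passed as higher in edgeR, 3 of 6 members, against 60.1% of all genes. Adcyap1r1 at 0.13, Cartpt at 0.69 and Sstr2 at 0.30 then lay above 0 and below that median. Under TMM scaling the median log2 fold change of the pan-neuronal markers themselves was 0.26. Of these 20 markers 10 were called higher in edgeR, against 2.34% of all genes.

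**Figure D5:**
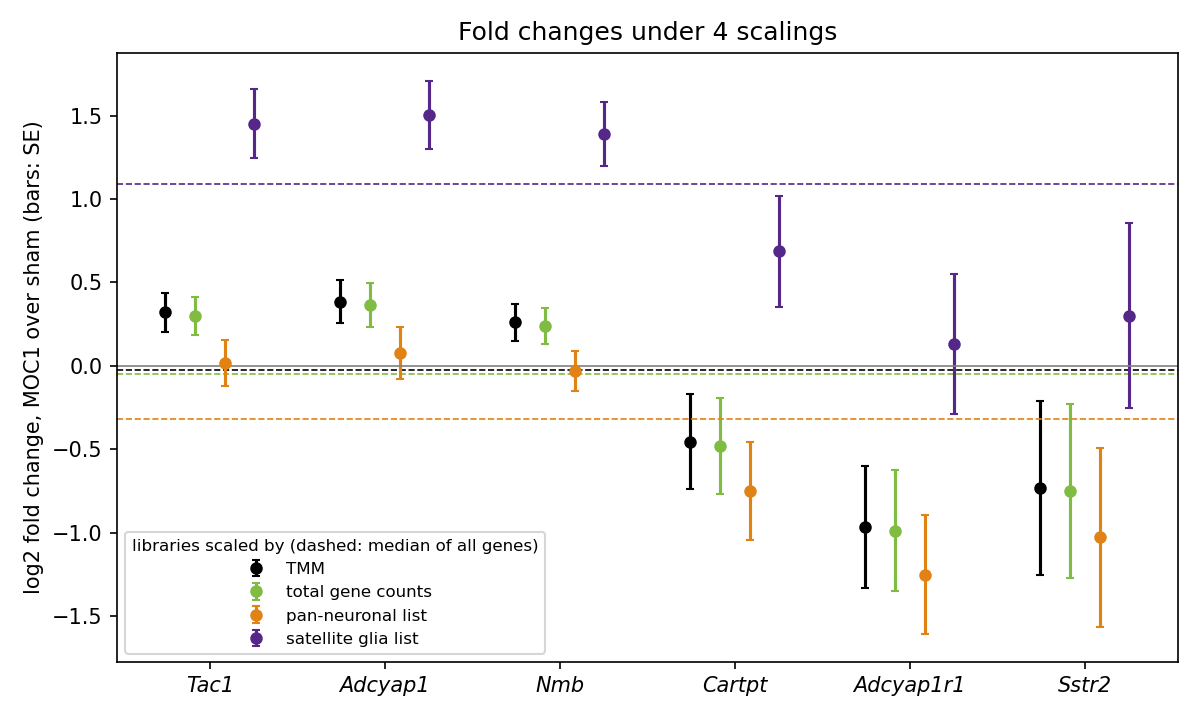
Log2 fold change of MOC1 over sham with its SE (y axis) for the 6 tested members (x axis) under TMM, total gene counts, the pan-neuronal list and the satellite glia list. Dashed lines give the median of all tested genes under each scale. Tac1, Adcyap1 and Nmb lie near 0 with pan-neuronal scaling and between 1.39 and 1.503 with satellite glia scaling.

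The other genes of these peptide families were mostly at or near 0 in these libraries of sorted trigeminal neurons. Tac2, Tac4, Vipr1, Brs3, Gast, Cort, Sstr3 and Galr3 had no count in any library. Of the CCK family, Cckar, which encodes the CCK-A receptor, rose in MOC1. It stood at 13.0, 23.2, 25.9, 16.4, 25.9 and 18.9 CPM in MOC1 libraries, against 9.73, 7.64, 11.6, 14.9 and 14.1 CPM in sham libraries. The ranges overlapped through MOC1 female 1 and the sham males. The log2 fold change was 0.83 ± 0.24 SE (edgeR adjusted p = 0.0415). Only without MOC1 female 1 or MOC1 male 1 did the call remain among the 11 fits that leave out a library, where the log2 fold change ranged between 0.70 and 0.92 and the edgeR adjusted p between 0.0261 and 0.120. It was also lost without the 3 libraries that stand apart (0.60), with pan-neuronal scaling (0.53), with the replicate block (0.78) and with voom (0.55). Its partner receptor Cckbr averaged 1.55 ± 1.37 CPM in the MOC1 arm, against 0.661 ± 1.48 CPM in the sham arm (SD, n = 6 and 5) and did not pass.

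In the tachykinin, PACAP and VIP, bombesin and somatostatin families no gene passed in edgeR. Tacr3, the receptor for neurokinin B, stood at 1.47 ± 1.61 CPM in the MOC1 arm, against 1.86 ± 2.25 CPM in the sham arm (SD, n = 6 and 5). Grpr, the receptor for gastrin-releasing peptide, stood at 1.64 ± 0.767 and 0.546 ± 0.440 CPM in MOC1 and sham and did not pass (edgeR adjusted p = 0.486). Its arms did not overlap but all but touched, at 1.065 CPM in MOC1 female 2 and 1.062 CPM in sham female 3. Nmbr, the neuromedin B receptor, stood at 0.952 ± 1.04 CPM in the MOC1 arm, against 0.432 ± 0.454 CPM in the sham arm, and the VIP receptor Vipr2 at 0.524 ± 0.820 and 0.291 ± 0.402 CPM in MOC1 and sham. The somatostatin precursor Sst stood at 4.52 ± 3.14 CPM in the MOC1 arm, against 3.59 ± 3.94 CPM in the sham arm. Among 12 genes for other peptides and their receptors, 9 were tested and none passed. The neuropeptide Y receptors were the most abundant of these, with Npy1r at 45.9 ± 15.0 CPM in the MOC1 arm, against 31.7 ± 10.8 CPM in the sham arm (edgeR adjusted p = 0.335) and Npy2r at 27.3 ± 8.67 and 15.9 ± 8.07 CPM in MOC1 and sham (edgeR adjusted p = 0.0827).

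Among 8 enzymes that cleave peptides, the median log2 change was 0.07, against -0.03 over all genes tested. None rose, against 2.34% of all genes, and 1 fell, against 4.28%. It was Ece1, endothelin-converting enzyme, known to degrade substance P and CGRP in endosomes. Ece1 averaged 126 ± 8.30 CPM in the MOC1 arm, against 183 ± 37.9 CPM in the sham arm (SD, n = 6 and 5), without overlap, a log2 fold change of -0.53 ± 0.11 SE (edgeR adjusted p = 0.00433). The highest value was that of sham female 1, at 247 CPM, and without it the log2 fold change was -0.40. Satellite glia markers were also lower in MOC1 (15 of 16 called). Endothelial and mural markers had negative log2 fold changes in 10 of 10 genes, with 2 called, and were highest in sham female 1, at 1435 CPM. The part of either set of markers in the level of Ece1 was not tested. With libraries scaled to the satellite glia list, Ece1 stood at 0.60 and was called higher (edgeR adjusted p = 0.00663), the opposite direction, below the median of all genes on that scale. Prep (prolyl endopeptidase) and Thop1 (thimet oligopeptidase) did not pass, with log2 fold changes of 0.03 ± 0.08 and 0.41 ± 0.15 SE.

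Of 33 genes for G proteins, adenylyl cyclases, phospholipase C, kinases and arrestins that such receptors use, 5 rose and 1 fell. Of all genes tested 2.34% were called higher and 4.28% lower. The median log2 change of the 33 genes was 0.14, against -0.03 over all genes tested. Among pan-neuronal markers 10 of 20 were called higher, with a median of 0.26. Gnaq, the G protein subunit used by the NK1 receptor, averaged 772 ± 89.3 CPM in the MOC1 arm, against 606 ± 50.7 CPM in the sham arm (SD, n = 6 and 5), a log2 fold change of 0.34 ± 0.08 SE (edgeR adjusted p = 0.0123). The protein kinase A subunit Prkar2a stood at 0.35 ± 0.08 and the arrestin Arrb1, which takes part in receptor internalisation, at 0.32 ± 0.08, both called higher in edgeR. Gnao1 (0.26 ± 0.07) and Prkar1b (0.22 ± 0.06) were the other genes called higher, and lost the call in 6 and 9 of the 11 fits that leave out a library, with log2 fold changes between 0.22 and 0.30 and between 0.20 and 0.25. Plcb4, a phospholipase C, fell by 0.52 on the log2 scale (SE 0.13), was called higher with satellite glia scaling (0.57, edgeR adjusted p = 0.00479), and lost the call without MOC1 female 2 (-0.50), sham female 2 (-0.46) or sham male 3 (-0.49). Without the 3 libraries that stand apart Prkar1b also lost its call (0.20, edgeR adjusted p = 0.0800). With pan-neuronal scaling no riser was still called, and Gnao1 (-0.03) and Prkar1b (-0.07) lay below 0. The abundant Gnas (0.10 ± 0.06) and Prkar1a (-0.04 ± 0.07) did not pass.

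Of 11 markers of peptidergic neurons, the class that makes substance P, 3 were called higher in edgeR (Calca, Trpa1 and Trpv1) and none lower. Over all genes the shares were 2.34% higher and 4.28% lower. Of the 11 peptidergic markers 7 had positive and 4 negative log2 fold changes, with a median of 0.15. The median was 0.26 for the pan-neuronal markers, of which 10 of 20 were called higher. It was 0.19 for 8 markers of nonpeptidergic neurons, 7 of them positive, 1 negative and 0 called. The 11 markers summed to between 4274 and 5081 CPM in MOC1 libraries and between 3999 and 4133 CPM in sham libraries. Scn10a (log2 0.13 ± 0.08 SE, not called) and Calca (0.28 ± 0.07, edgeR adjusted p = 0.0176) were the most abundant. Cold-sensing neuron markers, led by Trpm8 and Gpr26, summed to between 459 and 914 CPM in MOC1 and between 311 and 668 CPM in sham libraries, and none passed. Itch neuron markers, led by Osmr and Il31ra, summed to between 150 and 258 CPM in MOC1 and between 53.9 and 200 CPM in sham. Of these 6 markers 2 were called higher, against 2.34% of all genes. The part of these classes of neurons in the levels of Tac1 and Adcyap1 was not tested.

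The genes most like each member in their variation within groups were sought among 9488 others with a mean of at least 10 CPM, by the Pearson correlation of log2 CPM over the 11 libraries after the mean of each of the 4 groups was subtracted. For Tac1 they were Eif3c (0.96) and Rnf20 (0.93), and for Adcyap1 they were St3gal6 (0.94), Ddx56 (0.91) and Rflnb (0.91). For Nmb they were Oprl1 (0.99), Rnf214 (0.96) and Nol4 (0.96), and for Cartpt they were Chchd2 (0.95), Serp2 (0.91) and E2f6 (0.91). Spearman correlations were 0.75 for Chchd2 and 0.73 for Serp2, and between 0.82 and 0.98 for the other genes named. The highest of 9488 correlations over 11 libraries can reach such values with no relation between the genes, and no p was computed. These values describe 11 libraries that share one scaling, and none of these 11 genes was called between MOC1 and sham in edgeR.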

How the data were processed

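The labels' protocols describe fluorescence-sorted DiI-positive trigeminal neurons, poly(A) selection and single-end sequencing. The deposited files give, per the labels, the authors' raw stranded counts for each gene, whole numbers that were not normalized. Trimmomatic 0.35 did the trimming and STAR 2.7.1a the alignment, with GRCm38 (mm10) as the genome, per the submitters' processing notes, which also name RSEM. In the sources used here no annotation release is named. The 4 totals that name no gene held 18.7% to 21.5% of counts and were left out. Exon lengths came from GENCODE M21, matched by versioned identifier for 54349 genes.

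Counts were fitted in R 4.3.3 with edgeR 4.0.16 (filterByExpr, TMM, quasi-likelihood F test) as MOC1 against sham with sex as a term, and in 4 groups for females, males and the sex by tumour interaction. Thresholds were adjusted p values of 0.05 over all genes. SE is the log2 fold change over the square root of F. CPM are TMM-scaled and marker sums are not. Alternatives were DESeq2 1.42.0, voom with quality weights (limma 3.58.1), 4 other scalings, 2 other filters, left-out libraries, a replicate block and no sex term. A robust estimate of the spread was added after the data were seen. The members, gene lists and the 3 libraries left out together were chosen with earlier results of these data known. Named genes are all members, up to 4 called genes of each related list by p, up to 2 of its most abundant others, the most abundant markers, and the 3 genes most like each member above 10 CPM. A few genes that the rule names are not reported here. Other called genes of the signalling list were named after their values were seen. Correlations used log2(CPM + 0.5). MOC1 and sham libraries of the same sex and replicate number showed no clear shared pattern, which does not show that they were unpaired. The test of MOC1 against sham over all libraries was checked on simulated data. Those within each sex and of the interaction were not. No 2 libraries of a group agreed within sampling noise (chi-square per degree of freedom 13.3 to 39.6). Limits from 3 counts cover counting error only.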

Additional observations from a re-analysis of the deposited data

Results flagged for a closer look

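Tac1, Cartpt and Nmb each had 1 value that stood apart from the rest of its arm by Dixon's criterion, applied to the 6 tested members in the 6 MOC1 and the 5 sham libraries, where chance alone marks about 1 in 20 groups. Tac1 in MOC1 male 3 stood at 721 CPM, where the next MOC1 library stood at 531 CPM. Cartpt in the same library stood at 18.7 CPM, where the next stood at 11.6 CPM. Nmb in sham female 3 stood at 50.2 CPM, where the other sham libraries lay between 45.8 and 47.0 CPM. Without MOC1 male 3 the log2 fold change over all libraries was 0.24 for Tac1 and -0.64 for Cartpt, and neither passed in edgeR.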

How the results depend on the processing

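Of 534 results for the members under the alternatives tried, 481 kept their direction and side of the threshold, 33 passed it and 20 had the opposite sign. DESeq2 results with no adjusted p, those of Adcyap1r1 and Sstr2 in males, were counted as not past the threshold. The causes of the changes were not tested. Over 23 alternatives the adjusted p ranged between 1.02e-06 and 0.950 for Tac1 and between 7.99e-07 and 0.786 for Adcyap1, and a robust spread, added after the data were seen, called no member.

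DESeq2 called 613 genes higher over all libraries, 468 within females and 96 within males, with Tac1 at 0.32 and Adcyap1 at 0.39 over all libraries and at 0.61 and 0.68 within males. Voom called 149 higher and 397 lower within males. With pan-neuronal scaling 28 genes passed as higher and 2465 as lower over all libraries, with Adcyap1r1 at -1.25, Nmb at -0.032, Gnao1 at -0.033 and Prkar1b at -0.070. On that scale females had 13 higher and 2292 lower, with Tac1 at -0.29, Adcyap1 at -0.23, Nmb at -0.10 and Cartpt called at -1.27. Males had 5 higher and 308 lower, with Cartpt at -0.076 and Sstr2 at -0.11, and the male minus female difference of Nmb was 0.15.

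With satellite glia scaling 10102 genes passed as higher and 49 as lower, with Tac1 at 1.45, Adcyap1 at 1.503, Adcyap1r1 at 0.13, Nmb at 1.39, Cartpt at 0.69, Sstr2 at 0.30, Ece1 at 0.60 and Plcb4 at 0.57. Females then had 8782 higher and 64 lower, with Tac1 at 1.26, Adcyap1 at 1.31, Adcyap1r1 at 0.81, Nmb at 1.45 and Cartpt at 0.27. Males had 7611 higher and 9 lower, with Tac1 at 1.69, Adcyap1 at 1.75, Nmb at 1.32 and Cartpt at 1.22.

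With no filter Tac1 stood at 0.33 and Adcyap1 at 0.39, both called, and in males at 0.62 and 0.69. Females had 396 higher and 920 lower, males 90 and 379, and the interaction 43 and 10. Without the 3 libraries that stand apart Tac1 stood at 0.46 and Adcyap1 at 0.58, and in males at 0.69 and 0.71. Males then had 106 higher and 384 lower, the interaction 3 and 2, and the Nmb difference was 0.033.

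MOC1 and sham libraries of the same sex and replicate number showed no clear shared pattern, with correlations between -0.027 and 0.056. With so few libraries in a group, these values cannot show whether the libraries were paired. With the replicate number as a block Tac1 in males stood at 0.64 and was called.

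Leaving out 1 library at a time gave between 250 and 427 genes higher over all libraries, between 63 and 250 higher and between 282 and 626 lower in females, between 5 and 49 higher and between 57 and 291 lower in males, and between 0 and 2 higher in the interaction. Tac1 ranged between 0.22 and 0.41 and Adcyap1 between 0.30 and 0.53 over all libraries. In females Tac1 ranged between -0.0076 and 0.21 and Adcyap1 between -0.0088 and 0.38, below 0 only without sham female 2. In males Tac1 ranged between 0.45 and 0.77, Adcyap1 between 0.56 and 0.76, Adcyap1r1 between -1.98 and -1.51, Cartpt between -0.24 and 0.37 and Sstr2 between -0.50 and 1.06. The Nmb difference between the sexes ranged between -0.079 and 0.067. Depth limits Tacr1 and Cck. Cck had 31 counts in MOC1 male 2 and Tacr1 had 15 in sham female 3, and all other libraries had between 0 and 5.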
